A study of Mus musculus with 21 samples.

Results

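The collagen family was followed in mammary tumours that arose in mice of 4 transgenic kinds. Members were all genes of the deposited value table whose annotated symbol had the form of a collagen alpha chain (Col, a number, a, a number), and the features of a gene were averaged. This gave 42 collagen genes of 19087 genes, read by 101 array features. They fell into 11 chains of fibrillar collagens, 6 of the type IV network of basement membranes, the hemidesmosome and anchoring collagens Col17a1 and Col7a1, 2 multiplexins, 4 chains of type VI, 9 fibril-associated collagens, 3 of hexagonal networks, 3 other transmembrane collagens and 2 others. Col6a3 and Col6a5 were not analysed here.

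The tumours came from MMTV-ATX, MMTV-LPA3, MMTV-LPA2 and MMTV-LPA1 mice, with 5 mice per transgene. ATX stands for autotaxin, a secreted enzyme whose product is lysophosphatidic acid (LPA), and LPA3, LPA2 and LPA1 are G protein-coupled receptors for it. MMTV is the mouse mammary tumour virus promoter, which drives a transgene chiefly in mammary epithelium. RNA of the whole tumour was labelled with Cy5 and hybridised with whole-mouse total RNA labelled with Cy3 on 21 Agilent arrays, with 2 arrays for LPA1 mouse 4. Values are given throughout as the log2 ratio between tumour and reference, so 0 is the level of the whole mouse and a negative value is a level below it. Normal mammary gland was not hybridised, and the labels give neither the age nor the strain of the mice. Values of single tumours are given in the order of mice 1 to 5.

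Collagens are trimers of alpha chains wound into a triple helix. Fibrillar collagens, made mainly by fibroblasts, bone and cartilage cells, assemble into the fibres of the stroma, while type IV collagen forms the sheet of the basement membrane under epithelia and around vessels. Basal epithelial cells are tied to that sheet by hemidesmosomes, which contain type XVII collagen, and the sheet is tied to the stroma by anchoring fibrils of type VII collagen. In the mammary gland these structures lie where the basal and myoepithelial layer meets the stroma.

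The arrays fell into 2 sets of slides (numbered here from the array names in the labels) that differed in the width of their ratios. The SD over features was 0.825 to 0.903 on the 7 arrays of slides 5 and 6 and 1.19 to 1.43 on the 14 others, which lay on slides 1 to 4 and, for the first array of LPA1 mouse 4, on slide 7. All 5 ATX tumours lay on slides 1 to 4, as did 4 LPA3, 2 LPA2 and 2 LPA1 tumours. The rest, 1 LPA3, 3 LPA2 and 3 LPA1 tumours, shared slides 5 and 6. The main differences are therefore also given with the slide set in the fit. Genes of luminal mammary epithelium lay above the reference in every tumour, at a list mean of 0.24 to 2.80 over 6 markers. Within its group, LPA1 tumour 3 stood apart in 5 of 16 collagens followed in single tumours, LPA2 tumour 3 in 2 and ATX tumour 1 in 2. LPA1 tumour 3 and LPA2 tumour 3 lay on slides 1 to 4, unlike 3 tumours of each of their groups. The number of arrays limits the precision. In whole tumours, fewer cells of a type and less RNA per cell cannot be told apart.

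The 2 arrays of LPA1 mouse 4 show the technical error. Over the 42 collagens they differed by a median of 0.55, against 0.40 over all genes, and 6 collagens differed by more than 1. The largest gap was that of Col12a1, a fibril-associated collagen, at 2.26. Col17a1 was at −1.03 on the first array and −1.62 on the repeat, and Col1a1 at −0.89 and −0.32. Between tumours of the same transgene the median SD of a collagen was 0.75, against 0.57 over all genes. It ran from 0.33 for Col20a1 to 1.89 for Col8a1.

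Measured against the whole mouse, collagen transcripts were mostly low in these tumours. The mean over the 20 tumours lay below 0 for 34 of 42 collagens (81.0%), against 49.1% of all genes, and below −1 for 14 (33.3%), against 10.5%. The median of these means was −0.63 for collagens and 0.01 for all genes. Collagens below the reference in every tumour numbered 9 (21.4%, against 6.73% of all genes), and 0 of 42 lay above it in every tumour, against 3.99% of all genes. The fibrillar chains were the lowest class. All 11 had a mean below 0, 8 of them below −1, and 6 were below 0 in each of the 20 tumours. The type IV chains had a median of −0.43, and Col17a1 and Col7a1 lay at −0.58 and −0.70.

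The lowest mean was that of Col22a1, a collagen of muscle-tendon junctions, at −2.95, and the highest that of Col9a1, a cartilage collagen also made by some epithelia, at 1.12. Above 0 as well were Col4a5 and Col4a6, which encode partner chains of the basement membrane, and Col15a1, a multiplexin of basement membrane zones. The others above 0 were Col8a1 (0.20), Col28a1 (0.14), Col9a3 (0.14) and Col16a1 (0.11). Below 0 were 33 collagens on slides 5 and 6 and 34 on slides 1 to 4, and 31 were below it on both. Col8a1 and Col18a1 were below 0 on slides 5 and 6 alone, and Col6a4, Col6a6 and Col16a1 on slides 1 to 4 alone. The median was −0.36 on slides 5 and 6 and −0.88 on slides 1 to 4. Markers of tissues that the reference holds and a tumour may lack were low too. The mean of 6 cartilage markers lay between −2.80 and −0.17, and that of 5 bone markers between −2.48 and −0.11. Their part in the collagen levels was not tested.

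**Figure D1:**
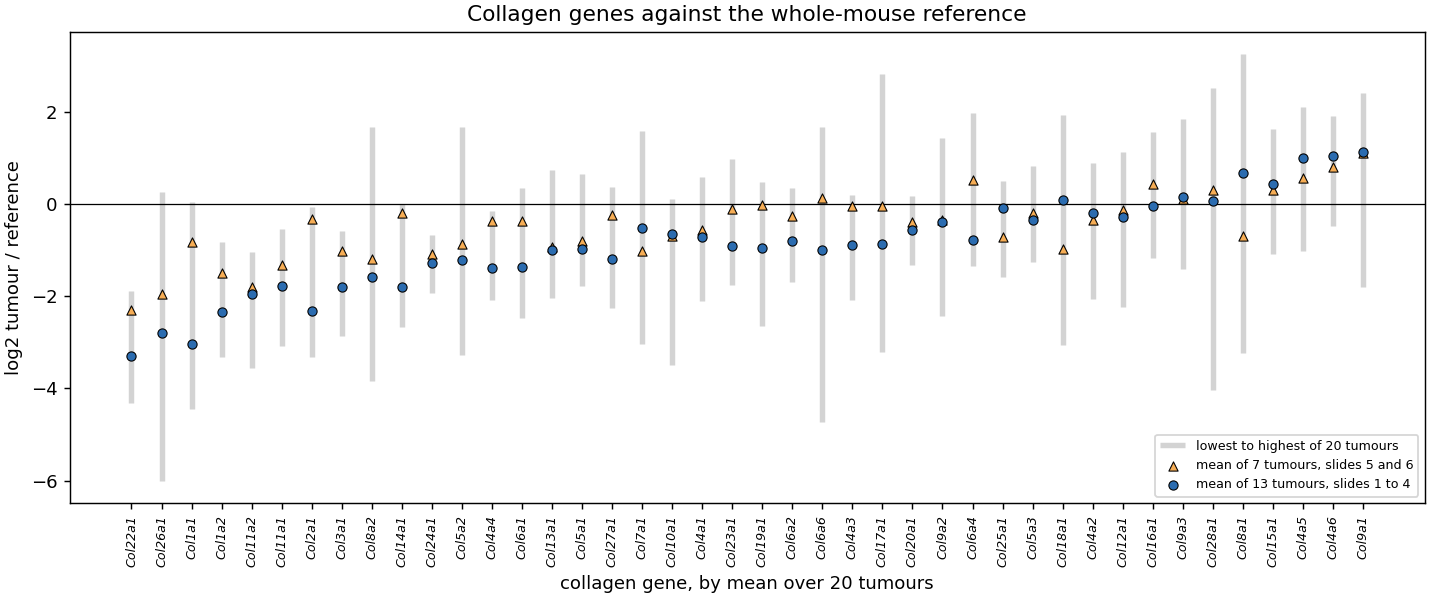
Log2 ratio of tumour to whole-mouse reference (vertical axis) for the 42 collagen genes, ordered by their mean over 20 tumours. Grey bars run from the lowest to the highest tumour, triangles are means of 7 tumours on slides 5 and 6 and circles means of 13 tumours on slides 1 to 4. Of the 42 genes, 34 have a mean below 0, and the lowest is Col22a1 at −2.95.

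Over the 4 transgenes, 0 of 42 collagens passed a Benjamini-Hochberg adjusted p of 0.05 in limma's F test, where 0.0315% of all 19069 tested genes did. At an unadjusted p under 0.05 there were 6 collagens (Col17a1, Col6a6, Col19a1, Col2a1, Col22a1 and Col10a1), which is 14.3% against 10.9% of all genes. For ATX against the mean of the receptor groups, likewise 0 of 42 collagens passed, against 0.0996% of all genes. Here 10 collagens had an unadjusted p under 0.05, or 23.8% against 12.7%. Of these, Col17a1, Col7a1, Col15a1 and Col13a1 were higher in ATX tumours, and Col6a6, Col19a1, Col22a1, Col6a1, Col20a1 and Col2a1 were lower. With the slide set in the fit, 6 collagens had an unadjusted p under 0.05, or 14.3% against 8.89%. They were Col17a1, Col7a1 and Col13a1, higher in ATX tumours, and Col6a6, Col19a1 and Col28a1, lower. In all 20 tumours together, 0 of 42 collagens had every ATX value above every receptor value, which 0.0528% of genes had, and 0 had every ATX value below, against 0.037%. A fit that weights each array by its residual spread called more genes in general. It called 13 collagens (31%) in the F test, against 17.5% of all genes, and 13 (31%) for ATX minus receptors, against 13.2%. In that fit the weights ran from 0.34 for LPA1 tumour 3 to 2.38 for LPA2 tumour 1.

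The hemidesmosome and anchoring collagens stood at the top of this comparison. Col17a1 encodes the transmembrane collagen of hemidesmosomes (chr19:47646341-47692042, GRCm38.p6, read by 2 features). Col7a1 encodes the collagen of anchoring fibrils (chr9:108953586-108984875, 1 feature). The RefSeq windows from 250 bases before to 50 bases after their starts are shown because these genes had the highest differences of the family.
Col17a1 (chr19:47691993-47692292, minus strand): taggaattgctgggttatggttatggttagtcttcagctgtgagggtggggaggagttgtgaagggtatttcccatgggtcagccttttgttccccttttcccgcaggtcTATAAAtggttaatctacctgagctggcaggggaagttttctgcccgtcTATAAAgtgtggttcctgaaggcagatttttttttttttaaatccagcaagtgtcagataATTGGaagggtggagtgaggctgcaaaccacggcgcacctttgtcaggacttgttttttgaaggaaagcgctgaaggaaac
Col7a1 (chr9:108953336-108953635, plus strand): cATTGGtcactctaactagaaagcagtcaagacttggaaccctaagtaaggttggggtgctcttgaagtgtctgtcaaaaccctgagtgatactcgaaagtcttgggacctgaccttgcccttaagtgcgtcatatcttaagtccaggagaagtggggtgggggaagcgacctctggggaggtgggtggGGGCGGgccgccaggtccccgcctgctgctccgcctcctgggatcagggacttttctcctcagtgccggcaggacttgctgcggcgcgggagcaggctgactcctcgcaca
Capitals mark 4 motifs searched on both strands: the TATA box letters TATAAA, the CCAAT box, the GC box letters GGGCGG, and the AP-1 letters TGANTCA. No 2 matches overlap in the windows shown. The Col17a1 window holds TATAAA 140 and 91 bases upstream of the start and CCAAT, read as ATTGG, 31 bases upstream. The Col7a1 window holds CCAAT 249 bases upstream and GGGCGG 61 bases upstream, and no TATAAA. Their G and C content is 46.3% for Col17a1 and 58.7% for Col7a1, and the median of all windows is 52.7%.

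In ATX tumours Col17a1 lay at −0.32, 0.89, 0.95, 1.24 and 2.81. It lay at −2.46, −2.06, −3.04, −0.43 and −2.19 in LPA3 tumours, at −0.31, −0.52, −0.64, −1.87 and 0.20 in LPA2 tumours and at 0.01, 0.22, −3.22, −1.32 and 0.50 in LPA1 tumours. ATX tumours 2 to 5 were above every receptor tumour, and ATX tumour 1 lay within the range of the LPA2 and LPA1 tumours. Among the receptor groups LPA3 was lowest, and 4 of its 5 tumours were at −2.06 or below. These 4 lay on slides 1 to 4, where LPA1 tumours were nearly as low. The means there were −2.44 in LPA3, −1.25 in LPA2 and −2.27 in LPA1 tumours (n = 4, 2 and 2). Over both slide sets the mean was 1.11 ± 1.12 in ATX tumours, −2.04 ± 0.97 in LPA3, −0.63 ± 0.76 in LPA2 and −0.76 ± 1.54 in LPA1 tumours (SD, n = 5 each).

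Col17a1 was thus 2.26 higher in ATX than in receptor tumours on the log2 scale (SE 0.55, limma adjusted p = 0.131), which did not pass over all genes. With the slide set in the fit the difference was 3.16 (SE 0.44, limma adjusted p = 0.00741), and Col17a1 was then the 1 collagen called, where 0.142% of all genes were. On slides 1 to 4, where all ATX tumours lay, the 5 ATX tumours (−0.32 to 2.81) did not overlap the 8 receptor tumours (−3.22 to −0.64), a pattern that 0.21% of genes showed in this direction. In the opposite direction 0 collagens had it there, against 0.063% of genes. That slide subset gave 3.15 with a limma adjusted p of 0.109, and a fit with each slide as a block gave 3.15 with a limma adjusted p of 0.0509. Both features of the gene were higher in ATX tumours, by 1.37 and 3.14, and correlated at 0.94 across tumours.

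Against LPA3 alone, Col17a1 was 3.15 higher in ATX tumours (SE 0.67, limma adjusted p = 0.0689), and 3.53 with the slide set in the fit (limma adjusted p = 0.00312). The difference to LPA2 was 1.74 (limma adjusted p = 0.308) and that to LPA1 1.88 (limma adjusted p = 0.51). Of all genes, 0.0996% passed for ATX against LPA3 and 0.42% with the slide set, while ATX against LPA2 called 0.00524% and ATX against LPA1 0%. In the F test with the slide set, Col17a1 was again the 1 collagen called (limma adjusted p = 0.0163), against 0.0734% of all genes. Without ATX tumour 1, the difference to the receptor groups was 2.61, and Col17a1, Col7a1 and Col6a6 passed the test in the fit without slides, or 7.14% of the collagens against 0.608% of all genes. For ATX against LPA3, Col17a1 passed without ATX tumour 1 (0.414% of all genes), without LPA1 tumour 3 (0.267%) or without LPA3 tumour 4 (0.142%).

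Col7a1 lay at −2.04, 1.55, 0.81, 1.19 and 1.58 in ATX tumours. It lay at −0.56, −3.03, −1.59, −0.19 and −0.76 in LPA3, at −1.73, −1.85, −0.66, −1.07 and −0.18 in LPA2 and at −1.08, −1.45, −2.97, 0.70 and −0.62 in LPA1 tumours. Here too ATX tumours 2 to 5 were above all receptor tumours, while ATX tumour 1 was among the lowest of the series. Of the receptor tumours LPA1 tumour 4 came nearest. Its value is the mean of 2 arrays, at 0.98 and 0.42, and the first array lay above ATX tumour 3. The difference, ATX minus receptors, was 1.75 (SE 0.58, limma adjusted p = 0.236), and 1.90 with the slide set in the fit (limma adjusted p = 0.336). Neither passed. The 3 receptor groups had means of −1.23 (LPA3), −1.10 (LPA2) and −1.09 (LPA1), which lie within 1 SD of each other.

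**Figure D2:**
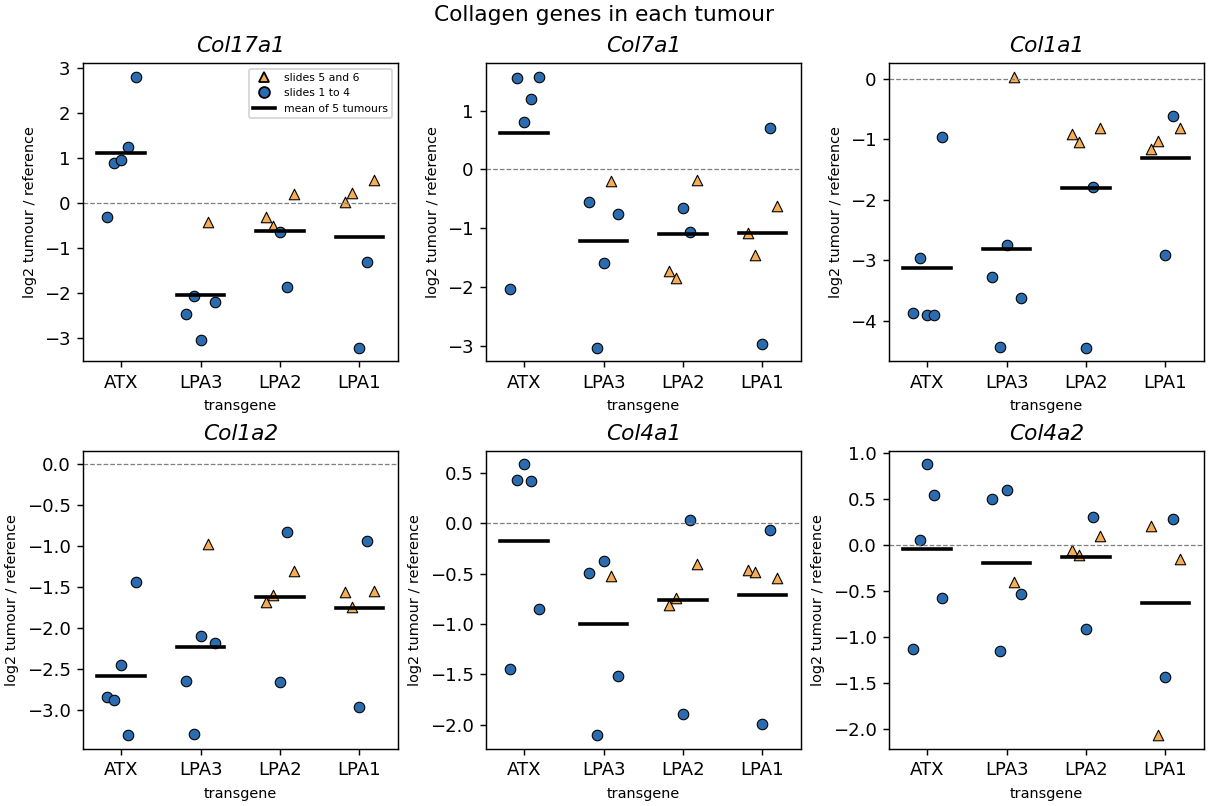
Log2 ratio of tumour to whole-mouse reference in each of 20 tumours for Col17a1, Col7a1, Col1a1, Col1a2, Col4a1 and Col4a2, by transgene. Circles are tumours on slides 1 to 4, triangles tumours on slides 5 and 6, and bars the means of 5 tumours. ATX tumours 2 to 5 hold the highest values of Col17a1 and Col7a1, and the Col1a1 values of slides 5 and 6 lie between −1.16 and 0.04. The value of LPA1 tumour 4 is the mean of its 2 arrays.

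Of 7 measured partners of these collagens at the hemidesmosome, 6 were higher and 1 was lower in ATX tumours (median difference 0.43). Limma called 0 of the 7, against 0.0996% of all genes, and 2 had an unadjusted p under 0.05, against 12.7%. Of these partners, Lama3 and Itgb4 had the smallest p in the F test. Lama3, a laminin chain that anchors hemidesmosomes, lay between 0.45 and 1.85 in ATX tumours and between −0.22 and 0.78 in receptor tumours, a difference of 0.72 (limma adjusted p = 0.14). Itgb4, the integrin subunit of hemidesmosomes, was at 0.75 to 2.31 in ATX tumours and at −0.70 to 2.03 in receptor tumours.

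Markers of basal and myoepithelial cells were compared between the groups as well. Their relation to Col17a1 across tumours was not tested. All 7 (Krt5, Krt14, Trp63, Acta2, Cnn1, Myh11 and Oxtr) were higher in ATX than in receptor tumours, with a median difference of 0.95, and 1.68 with the slide set in the fit. In limma 0 of 7 passed the test for that comparison, against 0.0996% of all genes, and 4 had an unadjusted p under 0.05, against 12.7% of all genes. The mean of the list ran from −0.24 to 0.66 in ATX tumours, from −2.07 to −0.45 in LPA3, from −1.12 to 0.47 in LPA2 and from −2.17 to 0.06 in LPA1 tumours. Against LPA2 alone, 5 markers were higher and 2 lower in ATX tumours, and all 7 were higher with the slide set in the fit. For ATX against LPA3, Cnn1, a contractile protein, was called at 4.24 (limma adjusted p = 0.0338), where 0.0996% of all genes were, and with the slide set Acta2, Cnn1 and Myh11 were called, where 0.42% were. Of 6 luminal markers, 5 were higher and 1 lower in ATX than in receptor tumours, with a median difference of 0.54. Limma called 0 of them (1 at an unadjusted p under 0.05). With the slide set in the fit 3 were higher and 3 lower (median 0.05). The part of basal or luminal cells in the Col17a1 values was not tested.

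For the basement membrane network the groups lay close together. Of the 6 type IV chains, 4 were higher and 2 lower in ATX tumours, with a median difference of 0.19, against −0.04 for all genes. With the slide set in the fit 3 were higher and 3 lower (median 0.12), and with each slide as a block 5 were higher and 1 lower (median 0.42). The class mean over the 6 chains ran from −0.55 to 0.26 in ATX tumours, from −0.75 to 0.37 in LPA3, from −1.04 to 0.26 in LPA2 and from −0.55 to 0.18 in LPA1 tumours, so the ranges of the 4 groups overlapped. Endothelial cells also make type IV collagen, and all 6 endothelial markers were higher in ATX tumours (median 0.29, and 0.54 with the slide set). Limma called 0 of these markers, against 0.0996% of all genes, and 1 had an unadjusted p under 0.05, against 12.7%. Their list mean ran from −0.20 to 0.22 in ATX tumours, from −1.03 to −0.23 in LPA3, from −0.51 to 0.09 in LPA2 and from −1.55 to 0.52 in LPA1 tumours. Their part in the type IV values was not tested.

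Col4a1 and Col4a2, the chains of the common type IV network, are transcribed away from each other from adjoining starts on chromosome 8 (chr8:11198423-11312889 on the minus strand and chr8:11312805-11449287 on the plus strand, GRCm38.p6). The annotated genes overlap by 85 bases and their RefSeq windows by 78 bases, which is why both windows are shown.
Col4a1 (chr8:11312777-11313076, minus strand): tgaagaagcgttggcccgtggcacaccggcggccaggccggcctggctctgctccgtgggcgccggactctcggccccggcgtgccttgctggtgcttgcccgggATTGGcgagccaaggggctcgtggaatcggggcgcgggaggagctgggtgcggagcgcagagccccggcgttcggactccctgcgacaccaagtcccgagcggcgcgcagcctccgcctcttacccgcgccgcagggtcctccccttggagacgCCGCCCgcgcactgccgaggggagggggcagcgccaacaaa
Col4a2 (chr8:11312555-11312854, plus strand): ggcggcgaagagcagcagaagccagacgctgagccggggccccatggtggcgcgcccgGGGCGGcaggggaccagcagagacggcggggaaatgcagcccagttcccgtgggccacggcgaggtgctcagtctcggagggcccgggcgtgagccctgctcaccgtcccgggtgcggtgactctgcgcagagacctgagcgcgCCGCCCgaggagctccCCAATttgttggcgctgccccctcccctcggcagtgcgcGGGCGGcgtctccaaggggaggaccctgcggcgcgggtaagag
Capitals mark the same motifs. Positions are counted from the start on which each window was built. For Col4a1 that start lies inside the annotated gene rather than at its outer end (chr8:11312889). CCAAT lies 145 bases upstream of this Col4a1 start and 32 bases upstream of the Col4a2 start. GGGCGG lies 9 bases past the same Col4a1 start, and 192 bases before, 48 bases before and 7 bases past that of Col4a2. Neither window holds TATAAA, and both are rich in G and C (74.0% in Col4a1 and 73.7% in Col4a2).

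Col4a1 lay at −1.45, 0.43, 0.59, 0.42 and −0.85 in ATX tumours. It lay at −0.49, −2.10, −0.37, −0.52 and −1.51 in LPA3, at −0.81, −0.74, −1.89, 0.03 and −0.40 in LPA2 and at −0.46, −0.48, −1.99, −0.07 and −0.54 in LPA1 tumours. Col4a2 lay at −1.12, 0.05, 0.88, 0.54 and −0.58 in ATX tumours. It lay at 0.49, −1.15, 0.59, −0.41 and −0.54 in LPA3, at −0.05, −0.11, −0.91, 0.30 and 0.10 in LPA2 and at 0.21, −2.06, −1.44, 0.28 and −0.15 in LPA1 tumours. ATX tumours 2 to 4 had the 3 highest Col4a1 values, while ATX tumours 1 and 5 lay among the receptor tumours, and the Col4a2 ranges of the 4 groups overlapped, with ATX tumour 3 highest and LPA1 tumours 2 and 3 lowest. The difference, ATX minus receptors, was 0.65 for Col4a1 (SE 0.39, limma adjusted p = 0.499) and 0.28 for Col4a2 (SE 0.39, limma adjusted p = 0.822).

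The multiplexin Col18a1, a basement membrane proteoglycan whose end fragment is endostatin, had the second largest spread within groups, after Col8a1. It lay at −2.36, −0.07, 0.75, 0.44 and 0.69 in ATX tumours. It lay at 1.35, −1.31, 1.80, 0.55 and 1.93 in LPA3, at −1.52, −1.59, −1.77, 1.48 and −0.07 in LPA2 and at −1.89, −1.14, −3.05, 1.33 and −1.20 in LPA1 tumours. LPA3 tumours 1, 3, 4 and 5 were above 0, and 4 of 5 tumours in each of the LPA2 and LPA1 groups were below it. ATX minus receptors was 0.23 (SE 0.68, limma adjusted p = 0.923) and −0.08 with the slide set in the fit, so it had no stable direction. Col15a1, the other multiplexin, was 0.68 higher in ATX tumours (limma adjusted p = 0.341).

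Fibrillar collagens were lower in ATX than in receptor tumours in 10 of 11 genes, without any of them passing the test. The median difference was −0.38, against −0.36 for all 42 collagens and −0.04 for all genes. With the slide set in the fit it was −0.18, with 9 of 11 genes lower. With each slide as a block the direction was lost, at a median of 0.05 with 6 of 11 genes higher. The mean over the 11 chains ran from −2.04 to −0.99 in ATX tumours, from −2.39 to −0.49 in LPA3, from −2.002 to −0.92 in LPA2 and from −2.03 to −0.66 in LPA1 tumours, so the groups overlapped. Col5a1, a minor chain that regulates fibre width, was at a difference of 0.02, whose sign changes with the setting.

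Col1a1 and Col1a2, the chains of type I collagen, the main collagen of stroma and bone, carried the lowest fibrillar values. Col1a1 (chr11:94936224-94953042) lay at −3.87, −2.97, −3.91, −3.91 and −0.96 in ATX tumours. It lay at −3.28, −4.44, −2.76, 0.04 and −3.63 in LPA3, at −0.92, −1.05, −4.45, −1.79 and −0.81 in LPA2 and at −1.16, −1.03, −2.92, −0.61 and −0.81 in LPA1 tumours. ATX tumours 1 to 4 were low and ATX tumour 5 was not, and LPA3 tumour 4, the LPA3 tumour on slides 5 and 6, was the 1 tumour at the level of the reference. Col1a2 (chr6:4505618-4541543) lay at −2.84, −2.88, −2.46, −3.31 and −1.44 in ATX tumours. It lay at −2.65, −3.30, −2.10, −0.98 and −2.18 in LPA3, at −1.69, −1.60, −2.66, −0.83 and −1.30 in LPA2 and at −1.56, −1.74, −2.97, −0.94 and −1.55 in LPA1 tumours. Its order of tumours was much the same, with every tumour below 0.

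ATX minus receptors was −1.15 for Col1a1 (SE 0.66, limma adjusted p = 0.488) and −0.72 for Col1a2 (SE 0.37, limma adjusted p = 0.427). With the slide set in the fit, Col1a1 was at −0.26 and Col1a2 at −0.48, and with each slide as a block the Col1a1 difference was 0.21. On slides 5 and 6, which held no ATX tumour, the mean of Col1a1 was −0.82, and on slides 1 to 4 it was −3.04. All 12 Col1a1 features were lower in ATX tumours, by −1.31 to −0.43.

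Of the other fibrillar chains, Col3a1, which forms the fine fibres of soft tissue, lay between −2.47 and −0.63 in ATX tumours, and between −2.87 and −0.59 in receptor tumours. Col5a1 lay between −1.79 and 0.39 in ATX tumours and between −1.78 and 0.64 in receptor tumours. Col5a2, its partner chain, lay between −2.47 and −0.34 in ATX tumours and between −3.28 and 1.67 in receptor tumours. For these 3 genes the ATX tumours lay inside or nearly inside the receptor range, and the differences were −0.33, 0.02 and −0.49. Col2a1, the collagen of cartilage, lay at −2.24, −2.42, −2.90, −3.01 and −1.35 in ATX tumours. It lay at −2.69, −2.84, −2.56, −0.12 and −3.31 in LPA3, at −0.19, −0.46, −1.81, −1.38 and −0.37 in LPA2 and at −0.57, −0.07, −2.94, −0.73 and −0.45 in LPA1 tumours. Low values were those of slides 1 to 4, in ATX and LPA3 tumours above all, and its difference, ATX minus receptors, was −1.02 (limma adjusted p = 0.382), and −0.22 with the slide set.

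Fibroblast markers overlapped between the groups too. The mean of 7 markers ran from −1.45 to 0.14 in ATX tumours, from −1.93 to −0.15 in LPA3, from −1.45 to −0.08 in LPA2 and from −2.24 to 0.76 in LPA1 tumours. Limma called 0 of the 7 for ATX minus receptors, against 0.0996% of all genes, and 1 had an unadjusted p under 0.05, against 12.7%. In ATX tumours 3 were higher and 4 lower, with a median difference of −0.17. The sign turned with the slide set in the fit, with 4 higher, 3 lower and a median of 0.32. The part of fibroblast number in the fibrillar values was not tested.

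All 4 measured type VI chains were lower in ATX tumours, with a median difference of −0.85, and −0.41 with the slide set in the fit. With each slide as a block 3 were lower and 1 higher (median −0.44). Type VI collagen forms beaded filaments around cells. Col6a1 lay at −2.20, −1.66, −1.47, −1.82 and −1.56 in ATX tumours. It lay at −1.16, −2.06, −0.61, 0.02 and −0.90 in LPA3, at −0.66, −0.63, −1.82, −0.49 and −0.54 in LPA2 and at −0.38, −0.27, −2.47, 0.35 and −0.16 in LPA1 tumours. The ATX values were tightly grouped, and 12 of 15 receptor tumours lay above all of them. The difference was −0.96 (SE 0.36, limma adjusted p = 0.283), and −0.63 with the slide set.

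Col6a6 had the largest negative difference of the family. It lay at −0.26, −2.27, −4.74, −1.61 and −0.85 in ATX tumours. It lay at −0.42, −0.87, −0.30, 0.00 and −1.09 in LPA3, at 0.05, 1.67, 0.52, 0.00 and −0.02 in LPA2 and at −0.79, 0.02, −0.68, −0.41 and 0.00 in LPA1 tumours. ATX tumour 3 was lowest, ATX tumours 1 and 5 overlapped the receptor tumours, and the mean was −1.95 ± 1.74 in ATX tumours and 0.45 ± 0.72 in LPA2 tumours (SD, n = 5 each). ATX minus receptors was −1.79 (SE 0.48, limma adjusted p = 0.155), and −1.55 with the slide set in the fit (limma adjusted p = 0.346). The gene is read by 1 feature, and without ATX tumour 3 the difference was −1.09. Its values in LPA3 tumour 4, LPA2 tumour 4 and LPA1 tumour 5 are listed at exactly 0.

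Among the remaining classes, 6 of 9 fibril-associated collagens and all 3 hexagonal network collagens were lower in ATX tumours. Col19a1, a collagen of basement membrane zones, differed by −1.15 (SE 0.32, limma adjusted p = 0.170), and Col22a1 by −1.03 (SE 0.31, limma adjusted p = 0.186). The transmembrane Col13a1, found at cell contacts, was 0.62 higher in ATX tumours (limma adjusted p = 0.356). None of these passed, and the plot of differences for all 42 genes shows them beside the values with the slide set.

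**Figure D3:**
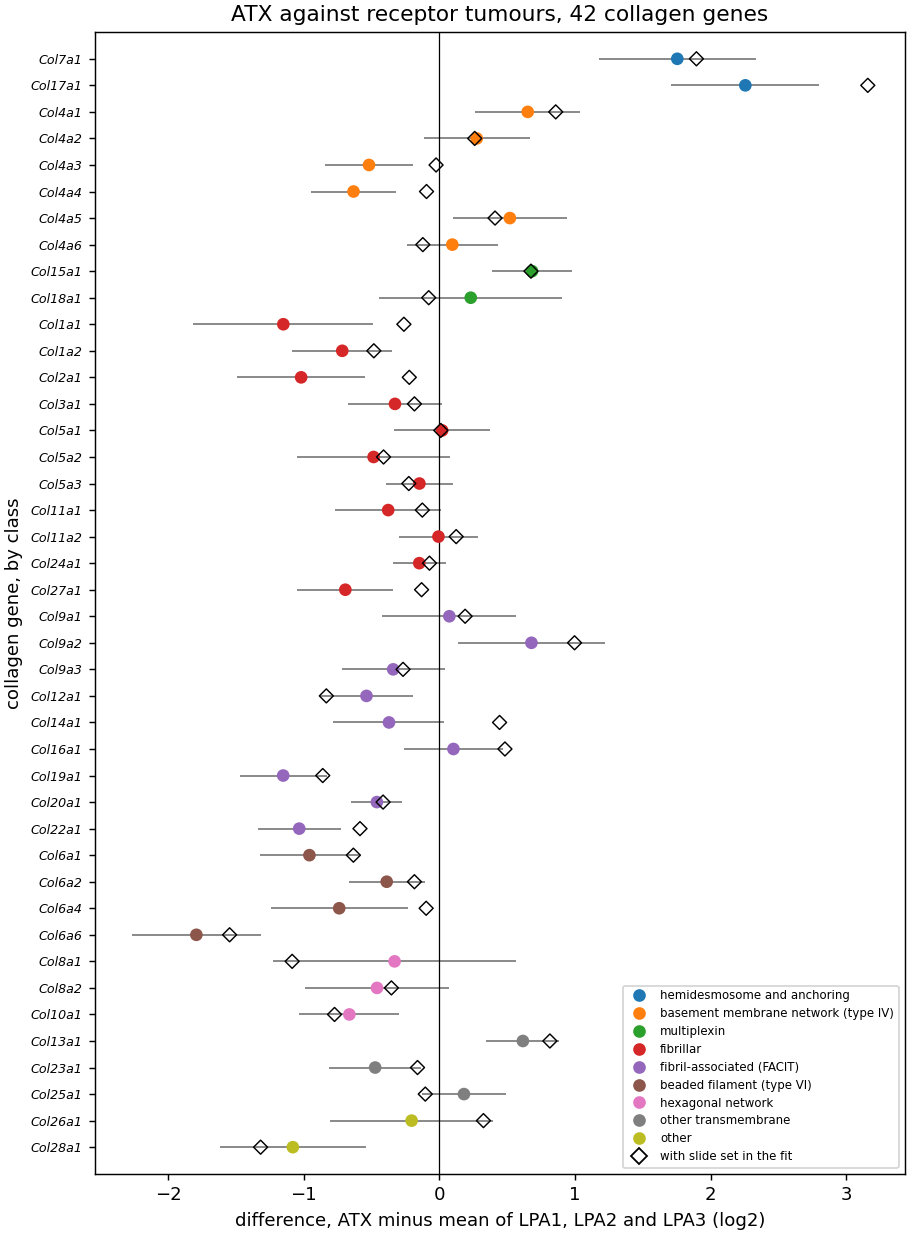
Difference of ATX minus the mean of the receptor groups (horizontal axis, log2) for the 42 collagen genes, coloured by class. Filled circles with bars are the difference and its SE without slides, and open diamonds the difference with the slide set in the fit. Col17a1 and Col7a1 lie furthest to the right (2.26 and 1.75) and Col6a6 furthest to the left (−1.79), while the diamonds of most fibrillar genes lie nearer to 0 than their circles.

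Comparisons of ATX with each receptor group share the ATX tumours and are given side by side. At an unadjusted p under 0.05 there were 7 collagens for ATX against LPA3 (16.7%, against 11.5% of all genes), 11 for ATX against LPA2 (26.2%, against 12.6%) and 9 for ATX against LPA1 (21.4%, against 8.99%). With the slide set in the fit there were 8 for LPA3 (19%, against 12.8%). For LPA2 there were then 7 (16.7%, against 7.25%) and for LPA1 5 (11.9%, against 6.45%). In the fit without slides, the median difference of the fibrillar chains was −0.17 to LPA3, −0.48 to LPA2 and −0.52 to LPA1. The first of these was −0.08 with the slide set in the fit, and with each slide as a block it turned to 0.32, with 9 of 11 genes higher in ATX than in LPA3 tumours. That of Col17a1 and Col7a1 was 2.50 to LPA3, 1.73 to LPA2 and 1.79 to LPA1, and that of the type IV chains was 0.20 to LPA3, 0.11 to LPA2 and 0.15 to LPA1. With weighted arrays, 5 collagens were called for ATX against LPA3 (11.9%, against 5.4% of all genes), 11 against LPA2 (26.2%, against 13.4%) and 10 against LPA1 (23.8%, against 9.04%).

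The receptor groups were also compared with each other, and 0 of 42 collagens passed in any of the 3 pairs. Of all genes, 0.00524% passed for LPA3 against LPA1, and 0% for LPA3 against LPA2 and for LPA2 against LPA1. At an unadjusted p under 0.05 there were 3 collagens for LPA3 against LPA1, or 7.14% against 9.2% of all genes. For LPA3 against LPA2 there were 2 (4.76% against 9.32%), and for LPA2 against LPA1 there was 1 (2.38% against 3.66%). Col17a1 was 1.27 lower in LPA3 than in LPA1 tumours and 1.41 lower in LPA3 than in LPA2 tumours (limma adjusted p = 0.577 and 0.536). With the slide set in the fit, Col17a1 was nearer between them, at −0.46 for LPA3 minus LPA1 and −0.65 for LPA3 minus LPA2. With weighted arrays, 3 collagens were called for LPA3 against LPA1 (7.14%, against 4.34% of all genes), 4 for LPA3 against LPA2 (9.52%, against 5.66%) and 0 for LPA2 against LPA1 (0% of all genes). The fibrillar median was −0.49 for LPA3 minus LPA1, −0.26 for LPA3 minus LPA2 and −0.01 for LPA2 minus LPA1.

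The widest receptor differences were in Col8a1 and Col18a1. Col8a1, a short-chain network collagen of vessel walls and remodelling stroma, lay at −3.23, 0.01, −0.31, 0.50 and 2.77 in ATX tumours. It lay at 1.08, 1.19, 1.48, 0.69 and 1.79 in LPA3, at −2.82, −2.51, −2.94, 2.13 and 1.31 in LPA2 and at 0.18, −1.80, 0.99, 3.26 and 0.14 in LPA1 tumours. The LPA3 tumours lay close together, and the LPA2 tumours split into 3 at −2.51 or below and 2 at 1.31 or above. LPA3 minus LPA2 was 2.21 (SE 1.10, limma adjusted p = 0.55), and LPA2 minus LPA1 was −1.52 (limma adjusted p = 0.999). For Col18a1, LPA3 minus LPA1 was 2.05 (SE 0.83, limma adjusted p = 0.501), and LPA3 minus LPA2 was 1.56 (limma adjusted p = 0.565).

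Col26a1, first described in testis and ovary, lay at −2.998, −2.19, −2.77, −2.92 and −2.39 in ATX tumours. It was at −4.35, −1.60, −3.01, −1.76 and −3.87 in LPA3, at −2.33, −1.84, −2.01, −6.02 and −2.41 in LPA2 and at −0.70, −1.72, 0.25, −2.52 and −2.87 in LPA1 tumours. LPA1 tumours 1 and 3 were high, and LPA2 tumour 4 stood far below the rest. LPA3 minus LPA1 was −1.40 and LPA2 minus LPA1 −1.41 (limma adjusted p = 0.579 and 0.999). Col10a1, the collagen of hypertrophic cartilage, lay at −1.52, −1.41, −0.38, −1.10 and −1.40 in ATX tumours. It was at −0.29, −0.99, 0.00, −0.21 and −0.34 in LPA3, at 0.00, 0.10, −0.17, 0.00 and 0.00 in LPA2 and at −1.08, −0.13, −0.66, −0.25 and −3.49 in LPA1 tumours. The LPA2 minus LPA1 difference of 1.11 (limma adjusted p = 0.999) rests largely on LPA1 tumour 5, without which it was 0.52. Of its LPA2 values, those of tumours 1, 4 and 5 are listed at exactly 0, as were 58 of the 2121 collagen feature values.

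**Figure D4:**
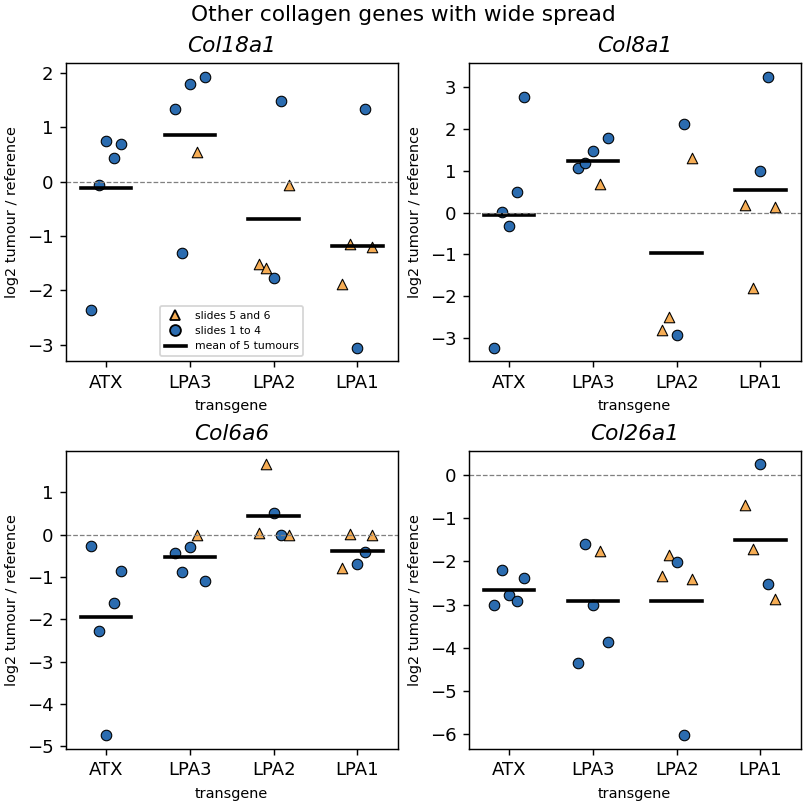
Log2 ratio of tumour to whole-mouse reference in each of 20 tumours for Col18a1, Col8a1, Col6a6 and Col26a1, by transgene. Circles are tumours on slides 1 to 4, triangles tumours on slides 5 and 6, and bars the means of 5 tumours. Col8a1 spreads from −3.23 to 2.77 in ATX tumours and from 0.69 to 1.79 in LPA3 tumours, and Col6a6 reaches −4.74 in ATX tumour 3.

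Several collagens differed between the slide sets. With the transgene in the fit, 7 of 42 collagens were called, all of them higher on slides 5 and 6 than on slides 1 to 4, or 16.7% against 8.72% of all genes. These were Col2a1 (1.71), Col14a1 (1.72), Col1a1 (1.95), Col17a1 (1.89), Col27a1 (1.16), Col4a4 (1.09) and Col4a3 (0.99), and the limma adjusted p ran from 2.8e-05 for Col14a1 to 0.0452 for Col1a1. All 7 had a mean below 0 on slides 1 to 4, from −3.04 for Col1a1 to −0.86 for Col17a1. Ratios were narrower on slides 5 and 6, so a higher level and a ratio drawn towards 0 cannot be told apart. Bone markers were higher there too, with a list mean of −0.64 to −0.11 on slides 5 and 6 and −2.48 to −1.04 on slides 1 to 4. Skeletal muscle markers lay at −0.84 to 0.63 on slides 5 and 6 and −4.25 to −0.94 on slides 1 to 4. The part of these markers was not tested. The LPA2 and LPA1 groups lay on both slide sets. Their difference depended on the slide set in 0 of 42 collagens (0.0157% of all genes), and 2 (4.76%) had an unadjusted p under 0.05 for this dependence, against 8.73% of all genes.

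Chains that form trimers together or whose proteins act together, and pairs between classes, were compared across tumours within each slide set. There were 14 pairs and 28 relations. Pearson's r passed a Benjamini-Hochberg adjusted permutation p of 0.05 in 8 relations on slides 1 to 4 (13 tumours of all 4 transgenes) and 4 on slides 5 and 6 (7 receptor tumours, exact permutation). By Spearman's rho, 5 relations passed on slides 1 to 4 and 2 on slides 5 and 6. The points share arrays and, on slides 1 to 4, a mixture of transgenes.

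Of the type VI chains, the pair Col6a1 and Col6a2 was run and passed on both sets. Col6a1 and Col6a2 had r = 0.89 on slides 1 to 4 (permutation p = 4e-05, adjusted 0.0007; rho = 0.85, adjusted p = 0.00887) and r = 0.87 on slides 5 and 6 (exact permutation p = 0.0192, adjusted 0.0449; rho = 0.89, adjusted p = 0.0492). Without the 2 tumours farthest in Col6a1, r was 0.74 on slides 1 to 4 and 0.87 on slides 5 and 6. Col8a1 and Col8a2 had r = 0.70 on slides 1 to 4 (permutation p = 0.00835, adjusted 0.0244; rho = 0.53, adjusted p = 0.19) and r = 0.93 on slides 5 and 6 (exact permutation p = 0.00119, adjusted 0.00667; rho = 0.93, adjusted p = 0.0378). Leaving out the 2 farthest tumours gave 0.46 on slides 1 to 4 and 0.85 on the other set.

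For type I collagen, Col1a1 and Col1a2 had r = 0.85 on slides 1 to 4 (permutation p = 0.00066, adjusted 0.00462; rho = 0.70, adjusted p = 0.0425), and 0.72 without the 2 farthest tumours. The other set gave r = 0.89 (exact permutation p = 0.0264, adjusted 0.0568; rho = 0.68, adjusted p = 0.236). Col1a1 and Col5a2, which co-assemble in fibres, had r = 0.88 on slides 1 to 4 (permutation p = 5e-05, adjusted 0.0007; rho = 0.83, adjusted p = 0.00887) and r = 0.78 on slides 5 and 6 (exact permutation p = 0.0151, adjusted 0.0384; rho = 0.68, adjusted p = 0.236), or 0.81 on the first set and 0.70 on the other without the 2 farthest. Col1a1 and Col3a1 had r = 0.78 on slides 1 to 4 (permutation p = 0.00274, adjusted 0.011; rho = 0.48, adjusted p = 0.236), which rests on the 2 farthest tumours, since r was 0.34 without them. On slides 5 and 6 that pair had r = 0.29 (adjusted exact permutation p = 0.581). Col5a1 and Col5a2 had r = 0.89 on slides 5 and 6 (exact permutation p = 0.00873, adjusted 0.0244; rho = 0.75, adjusted p = 0.19), 0.81 without the 2 farthest, and r = 0.44 on slides 1 to 4 (adjusted permutation p = 0.264).

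Col4a1 and Col4a2, whose start windows overlap, had r = 0.90 on slides 1 to 4 (permutation p = 0.00014, adjusted 0.00131; rho = 0.82, adjusted p = 0.00887), and 0.85 without the 2 farthest tumours. On slides 5 and 6 r was −0.18 (exact permutation p = 0.724, adjusted 0.811; rho = 0.25, adjusted p = 0.877), where LPA1 tumour 2 had a Col4a2 value of −2.06. Col4a5 and Col4a6, head to head on the X chromosome with 1274 bases between them, had r = 0.72 on slides 1 to 4 (permutation p = 0.00564, adjusted 0.0197; rho = 0.66, adjusted p = 0.0581), and 0.61 without the 2 farthest. The other set gave 0.42 (adjusted exact permutation p = 0.53). Col4a3 and Col4a4, the chains of kidney and lung basement membranes, overlap by 114 bases on chromosome 1 and had r = −0.22 on slides 1 to 4 and −0.24 on slides 5 and 6 (adjusted permutation p = 0.603 and 0.731).

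Col17a1 and Col7a1 had r = 0.78 on slides 1 to 4 (permutation p = 0.00209, adjusted 0.00975; rho = 0.73, adjusted p = 0.0378), and 0.67 without the 2 tumours farthest in Col17a1. Slides 1 to 4 hold ATX tumours 2 to 5, which were highest in both genes. The 7 tumours of slides 5 and 6, none of them ATX, gave r = 0.35 (exact permutation p = 0.41, adjusted 0.574; rho = 0.39, adjusted p = 0.691). Between classes, Col1a1 and Col17a1 had r = 0.08 on slides 1 to 4 and −0.28 on the other set. For Col1a1 and Col4a1 r was 0.33 on slides 1 to 4 and 0.15 on the other set, and the adjusted permutation p of these 4 relations was 0.42 to 0.836. The pairs Col9a1 with Col9a2 and Col11a1 with Col11a2 did not pass on either set (adjusted permutation p = 0.294 to 0.851).

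**Figure D5:**
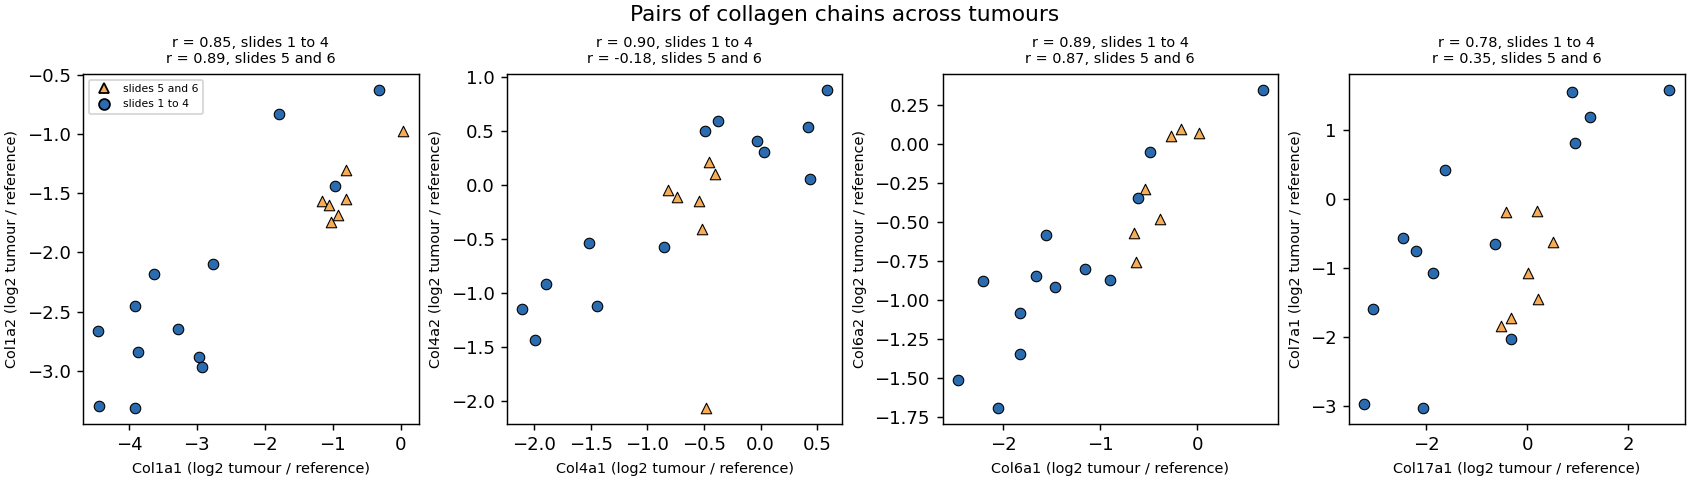
Log2 ratios of 4 pairs of collagen chains, 1 gene on each axis, in 20 tumours. Circles are 13 tumours on slides 1 to 4 and triangles 7 tumours on slides 5 and 6, with Pearson's r of each set above the panel. Col6a1 and Col6a2 vary together on both sets (0.89 and 0.87), and Col4a1 and Col4a2 on slides 1 to 4 (0.90) but not on slides 5 and 6 (−0.18).

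RefSeq held windows for 33 of the 42 collagens. GGGCGG was present in the windows of 21 of 33 collagens, against 35.7% of all 32851 windows, CCAAT in 13 (37.4%), TATAAA in 5 (13.6%) and TGANTCA in 1 (7.81%). The 33 collagens had 36 windows, and a collagen was counted where any of its windows held the letters. The shares are of single windows and were not matched for G and C content, so they are not a like background. The 5 with TATAAA were Col17a1, Col3a1, Col10a1, Col11a2 and Col13a1, which belong to different classes, and the 1 with TGANTCA was Col6a1. A match says only that these letters are in the window. Col1a1, Col2a1, Col5a2, Col4a3, Col9a3, Col12a1, Col14a1, Col22a1 and Col26a1 had no window.

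Genes that process and bind collagen were taken from lists. Of 28 measured enzymes of collagen synthesis and crosslinking, 12 were higher and 16 lower in ATX tumours, with a median difference of −0.07. Limma called 0 of these enzymes, against 0.0996% of all genes, and 3 had an unadjusted p under 0.05, against 12.7%. Among them the smallest p in the F test were those of Colgalt2, a collagen galactosyltransferase, at 1.04 for ATX minus receptors, and Lox, a crosslinking oxidase, at −1.01. Limma called 0 of 11 small proteoglycans and fibril partners, and 1 had an unadjusted p under 0.05, against the same shares of all genes. Of the 11, 5 were higher and 6 lower in ATX tumours, with a median of −0.16. Fitted with the slide set, 8 were higher and 3 lower, with a median of 0.42. Thbs2, a matricellular protein, lay between −2.10 and −0.44 in ATX tumours, and between −1.62 and 1.46 in receptor tumours, while Lum, a fibril proteoglycan, lay between −3.87 and −0.76 in ATX tumours and between −5.32 and −0.13 in receptor tumours.

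Limma called 0 of 9 measured collagen receptors, against 0.0996% of all genes, and 0 had an unadjusted p under 0.05, against 12.7%. Of the 9, 5 were higher and 4 lower in ATX tumours, with a median of 0.01. Fitted with the slide set, 3 were higher and 6 lower, with a median of −0.02. Gp6, the platelet receptor for collagen, lay between −1.89 and −0.34 in ATX tumours and between −2.06 and −0.01 in receptor tumours. Itga11, a fibroblast integrin for fibrillar collagen, lay between −2.52 and 0.47 in ATX tumours and between −2.34 and 1.08 in receptor tumours. Both ranges overlapped widely. Adamts2 and Itga10 were not analysed here.

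Different features of a gene did not always run together. Of 28 collagens with several features, 12 had a median correlation between features above 0.5, and in 4 (Col11a2, Col24a1, Col4a6 and Col19a1) the lowest correlation was below 0. In 8, among them Col5a1, Col4a3 and Col6a2, the features differed in the sign of ATX minus receptors. The 2 features of Col5a1 gave −0.61 and 0.65 and correlated at 0.02, so its mean joins unlike readings.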

How the data were processed

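The 42 members and the gene lists were chosen with earlier results of these data known. The authors deposited 1 value table of processed log2 ratios, tumour (Cy5) over whole-mouse reference (Cy3) per the labels, without dye swaps. The log base, scanner, background correction and normalization are not given in the sources used here. Base 2 was assumed, since values run from −11.4 to 9.86. Every array had a median of 0, and the direction follows the dyes. Of 45220 features, 33653 had 1 gene symbol (56 had several, 11511 none) in the platform annotation, and features of a gene were averaged. The arrays of LPA1 mouse 4 were averaged, except where the slide was a term, where the repeat array stood for it. Signal over background is not in the table, and no filter on dim features was set.

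Genes with values in at least 4 tumours per group (19069) were fitted with limma 3.58.1 in R 4.3.3, all 20 tumours in 1 fit with 16 residual degrees of freedom and no covariate. Each group mean is that of 5 separate mice, per the labels. A gene was called where its p, adjusted by Benjamini-Hochberg over 19069 genes, was under 0.05. Gene p-values are from this limma fit or a named variant. Relations used 1e+05 two-sided permutations (exact over 5040 orderings for 7 tumours) in Python 3.11.15 with scipy 1.17.1. Tumours were given singly for the main chains of each class, for called genes and for the 3 of largest difference per comparison. Of each partner list, called genes and otherwise the 2 of smallest F test p were named. The code was tested on simulated data. Sequences are from RefSeq, GRCm38.p6.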

Additional observations from a re-analysis of the deposited data

Results flagged for a closer look

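Of 64 groups of 5 tumours (16 collagens followed in single tumours), 12 held a tumour whose gap to the nearest other, divided by the range of the group, was above 0.71. With normal values of 1 spread, about 1 group in 20 would be flagged. The receptor groups mix slide sets of unlike width, and some of the genes were picked for large differences. The share over all genes was not computed, so the count was not set against chance. LPA1 tumour 3 stood below the rest of its group in Col1a1 (−2.92, others −1.16 to −0.61), Col2a1 (−2.94, others −0.73 to −0.07), Col3a1 (−2.20, others −0.98 to −0.59), Col4a1 (−1.99, others −0.54 to −0.07) and Col6a1 (−2.47, others −0.38 to 0.35). LPA2 tumour 3 stood below the rest of its group in Col1a1 (−4.45, others −1.79 to −0.81) and Col6a1 (−1.82, others −0.66 to −0.49). Both of these tumours lay on slides 1 to 4, while tumours 1, 2 and 5 of each group lay on slides 5 and 6. The mean over all tumours of slides 1 to 4 was −3.04 for Col1a1 and −2.32 for Col2a1. ATX tumour 1 stood below the other ATX tumours in Col7a1 (−2.04, others 0.81 to 1.58) and Col18a1 (−2.36, others −0.07 to 0.75). LPA3 tumour 4, the LPA3 tumour on slides 5 and 6, stood above the others in Col2a1 (−0.12, others −3.31 to −2.56). LPA1 tumour 5 was low in Col10a1 (−3.49, others −1.08 to −0.13), and LPA2 tumour 4 in Col26a1 (−6.02, others −2.41 to −1.84). Col10a1 is read by 1 feature, and the 2 features of Col26a1 correlated at 0.43.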

How the results depend on the processing

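With the slide set in the fit, 1 collagen (Col17a1) was called in the F test, 1 for ATX minus receptors and 1 for ATX minus LPA3, and quantile normalization called 1 for ATX minus LPA3 (0.0996% of all genes). Array weights called 13 collagens in the F test (17.5% of all genes), 13 for ATX minus receptors (13.2%), 10 for ATX minus LPA1 (9.04%), 11 for ATX minus LPA2 (13.4%), 5 for ATX minus LPA3 (5.4%), 3 for LPA3 minus LPA1 (4.34%) and 4 for LPA3 minus LPA2 (5.66%). The cause was not tested, and in the LPA1 and LPA2 groups the high weights lay on slides 5 and 6. Leaving out 1 tumour gave 0 to 3 collagens for ATX minus receptors (0% to 0.608% of all genes), 0 to 1 for ATX minus LPA3 (0.021% to 0.414%) and 0 in the other comparisons (0% to 0.194%). The median difference of ATX minus receptors stayed above 0 for Col17a1 with Col7a1 (1.67 to 2.67) and for the type IV chains (0.06 to 0.42) under every setting run. That of the fibrillar chains (−0.38) turned with slide as a block (0.05) and was −0.09 with arrays scaled and −0.07 after quantile normalization. Mouse numbers come from different mice. Tumours of the same number correlated at −0.35 to 0.32 in their deviations (median near 0), 4 of 20 correlated best with their own number, and the replicate block called 0 collagens in each comparison. No range of Col17a1 crossed 0: ATX minus receptors was 1.83 to 2.61 when 1 tumour was left out. Depth cannot be judged, since the table holds no signal over background.

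For ATX minus receptors, the sign turned for Col1a1 (0.21) and Col5a2 (0.15) with slide as a block, for Col3a1 (0.0567) after quantile normalization, for Col18a1 with the slide set (−0.0785) and on slides 1 to 4 (−0.096), and for Col8a1 with array weights (0.19) and without single tumours (−1.04 to 0.46). It turned for Col5a1 with slide as a fixed (−0.11) or random block (−0.0367), on slides 1 to 4 (−0.0858), with array weights (−0.27) and without single tumours (−0.30 to 0.24). It turned for Col26a1 with the slide set (0.325), on slides 1 to 4 (0.295), with arrays scaled (0.425) and after quantile normalization (0.38). On slides 5 and 6, LPA3 minus LPA1 was 1.04 for Col1a1 and LPA3 minus LPA2 was 0.22 for Col2a1, and with slide as a block LPA3 minus LPA1 was 0.52 for Col26a1. Without the 2 farthest tumours, r turned for Col5a1 and Col5a2 (−0.22) and Col1a1 and Col17a1 (−0.35) on slides 1 to 4. On slides 5 and 6 it turned for Col4a1 and Col4a2 (0.20), Col4a3 and Col4a4 (0.25), Col9a1 and Col9a2 (−0.0703), Col17a1 and Col7a1 (−0.0371) and Col1a1 and Col17a1 (0.63). With arrays scaled, Col11a1 and Col11a2 had −0.57 on slides 1 to 4. Of 485 alternative differences, 17 turned sign and 20 passed the test where the reported one did not.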
